A study of Mus musculus with 3 samples.

Results

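Interleukin-1 and tumour necrosis factor are the cytokines that brain macrophages release early in inflammation, and the levels of 10 genes of this system were followed across the cell types of Cd11b-sorted mouse brain. The genes were Il1a, Il1b, Il18 and Tnf (ligands), Il1rn and Il1r2 (a receptor antagonist and a decoy receptor), Tnfrsf1a and Tnfrsf1b (the receptors of Tnf), and Nlrp3 and Casp1 (inflammasome components). They were chosen by symbol, with earlier results of these data known, and each of the 10 had 1 row among the 27998 genes of the count matrix. The animals were 5-month-old female C57BL6J mice. An untreated group (Ctrl) held 1 animal. A group named D0 held 2 animals, pooled into 1 library, that had eaten chow with PLX5622 at 1200 mg/kg for 14 days. A group named D2 held 1 animal that had the same 14 days and then 2 days of control diet. PLX5622 inhibits Csf1r, a receptor that microglia need to survive. Whole brain without cerebellum was digested enzymatically for 45 min at 37 °C, and cells were sorted on Cd11b, a surface protein of microglia, monocytes, neutrophils and some dendritic and NK cells, before 3′ single-cell sequencing. The labels speak of 4 samples prepared together and describe 3.

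The barcodes carry the suffixes 1, 2 and 3, which nothing in the labels or files used here links to a group. Cells are therefore described by suffix as library 1, 2 and 3, with values side by side, and neither a comparison of the study's groups nor a p-value was made. The libraries held 1263, 599 and 287 cells with 6410990, 4022293 and 2831118 unique molecular identifiers (UMIs, each a counted mRNA molecule), at medians of 3662, 6188 and 8172 UMIs per cell, and shared 0 barcodes. After filtering, 2137 cells remained. Levels are given as UMIs per 1000000 UMIs of the same cells (CPM), with exact Poisson 95% intervals in brackets. These intervals cover counting error only, and there were no replicates.

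The IL-1 family ligands and Tnf act through membrane receptors that switch on NF-kB and MAP kinase signalling, which in turn raises transcription of the cytokines themselves. The products of Il1b and Il18 are made as inactive precursors that caspase-1, the product of Casp1, cleaves after Nlrp3 has assembled an inflammasome, whereas the precursor of Il1a can signal uncleaved. Il1rn blocks the signalling receptor and Il1r2 binds ligand without signalling. In the brain, microglia are a known source of Il1a and Tnf, and infiltrating myeloid cells are a known source of Il1b.

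Il1a and Il1b are neighbours on mouse chromosome 2 (GRCm38), at chr2:129299610-129309972 and chr2:129364570-129371139, both on the minus strand and 54598 bases apart. Tnf lies on the minus strand of chromosome 17, at chr17:35199381-35202007, and its relative Lta is 1158 bases away. The 100 bases before the start sites of these 3 cytokine genes are printed because their levels differed together between the microglial clusters described further on. They are from RefSeq (GRCm38.p6), at chr2:129309973-129310072, chr2:129371140-129371239 and chr17:35202008-35202107 on the minus strand, read 5′ to 3′. Capitals mark matches to the TATA box and to the AP-1 motif, which were searched along with NF-kB and C/EBP.
Il1a: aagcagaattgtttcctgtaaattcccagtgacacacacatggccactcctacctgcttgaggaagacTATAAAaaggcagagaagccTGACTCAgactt
Il1b: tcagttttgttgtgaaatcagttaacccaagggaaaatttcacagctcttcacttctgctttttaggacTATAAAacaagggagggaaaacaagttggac
Tnf: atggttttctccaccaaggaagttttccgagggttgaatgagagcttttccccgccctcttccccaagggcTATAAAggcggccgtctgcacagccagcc

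The TATA box was searched as TATAAA on both strands, and matches began 32, 31 and 29 bases before the start sites of Il1a, Il1b and Tnf. These 3 were the only genes among the 10 with a match in this window, and 5.56% of 32851 RefSeq start sites had one. AP-1 was searched as TGANTCA on both strands, and the match of Il1a began 12 bases before its start site, against 2.73% of all start sites. C/EBP, searched as TTGCNNAA on both strands, and NF-kB had a match in 3.43% and 3.00% of all start sites and in 0 of the 10 genes, which says only that these letters are not in these windows. A match describes letters in a window, and binding was not measured here.

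Cells fell into 15 clusters, built without the 10 genes and without the pathway genes named further on. The classes named from marker genes were microglia-like (1059 cells, of which 1050 were in library 1 and 9 in library 2), border-associated-macrophage-like (99, all in library 1), monocyte-like (134), non-classical-monocyte-like (66), neutrophil-like (90), dendritic-type-2-like (338), migratory-dendritic-like (56), NK-like (125) and endothelial-like (32). Clusters with 138 cells stayed unnamed. The border-associated-macrophage-like cells also met the naming rule for microglia, with 12 of 12 markers, so the boundary between these classes is not sharp. P2ry12, a microglial receptor, was counted at 818 CPM in NK-like cells of library 1 and at 3.82 CPM in those of library 2. The NK-like cells of library 1 thus carried microglial UMIs, and how these came there was not tested. The part of such UMIs in the values of library 1 was not tested either. Il1a stood at 62.96 CPM in its 13 NK-like cells, from 3 UMIs in 2 cells.

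Il1b, the ligand that needs caspase-1, was mostly a product of cells other than microglia. Microglia-like cells were 49.6% of all cells and held 2.59% of the 11581 Il1b UMIs, dendritic-type-2-like cells held 49.9%, and unnamed clusters held 18.8%. The dendritic name depended on the clustering. At the finer Leiden resolution of 1.0, 226 of the 338 dendritic-type-2-like cells kept it and 104 became unnamed. Of all Il1b UMIs, 7190 were in library 2, which had 9 microglia-like cells. Within library 1, microglia-like cells were 83.3% of cells and held 292 of 1898 Il1b UMIs. Most of the unnamed share was in a cluster of 44 cells (35 in library 2 and 9 in library 3) that passed 8 neutrophil and 5 dendritic type 2 markers and was led by Ifitm1, Cxcr2, Slpi and G0s2, with Il1b itself among its 10 leading genes. It held 1854 Il1b UMIs, or 3804 CPM [3633 to 3981], above every named class pooled over libraries. In that pool, neutrophil-like cells stood highest of the named classes at 3046 CPM [2883 to 3216], followed by dendritic-type-2-like cells at 1753 CPM [1708 to 1799] and monocyte-like cells at 817 CPM [771 to 864]. Non-classical-monocyte-like cells at 524 CPM and migratory-dendritic-like cells at 508 CPM had overlapping intervals, and border-associated-macrophage-like cells followed at 395 CPM [358 to 434]. Microglia-like cells were at 63.7 CPM [56.7 to 71.3] and NK-like cells at 52.4 CPM [32.8 to 79.3], again with overlapping intervals. These classes differ in library, since 1050 of the 1059 microglia-like cells and 13 of the 125 NK-like cells were in library 1. The NK-like cells of library 1 held 0 Il1b UMIs, which allows up to 62.96 CPM at 3 counts. Of the 22 NK-like UMIs, 19 were in library 2. An annotated antisense RNA, Il1bos, overlaps Il1b, and the use of strand in counting is not given in the sources used here.

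Counts in single cells showed this spread. Dendritic-type-2-like cells held from 0 to 121 Il1b UMIs with a median of 9, neutrophil-like cells from 0 to 89 with a median of 8.5, and monocyte-like cells from 0 to 94 with a median of 1. The median microglia-like cell held 0 and the highest held 39.

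Il1b was lower in library 3 than in library 2 in 4 classes with at least 20 cells in both. Neutrophil-like cells of library 2 held 3631 CPM [3398 to 3876] and those of library 3 held 1207 CPM [1010 to 1431]. In dendritic-type-2-like cells the level was 2297 CPM in library 1, then 1979 CPM and 1093 CPM in the others, with intervals apart at each step. Monocyte-like cells of library 2 and library 3 held 1236 CPM and 701 CPM, and non-classical-monocyte-like cells 1009 CPM and 363 CPM. In NK-like cells, at 72.6 CPM and 27.1 CPM, the intervals overlapped. Each library is 1 preparation, so differences between animals and between preparations cannot be told apart.

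**Figure D1:**
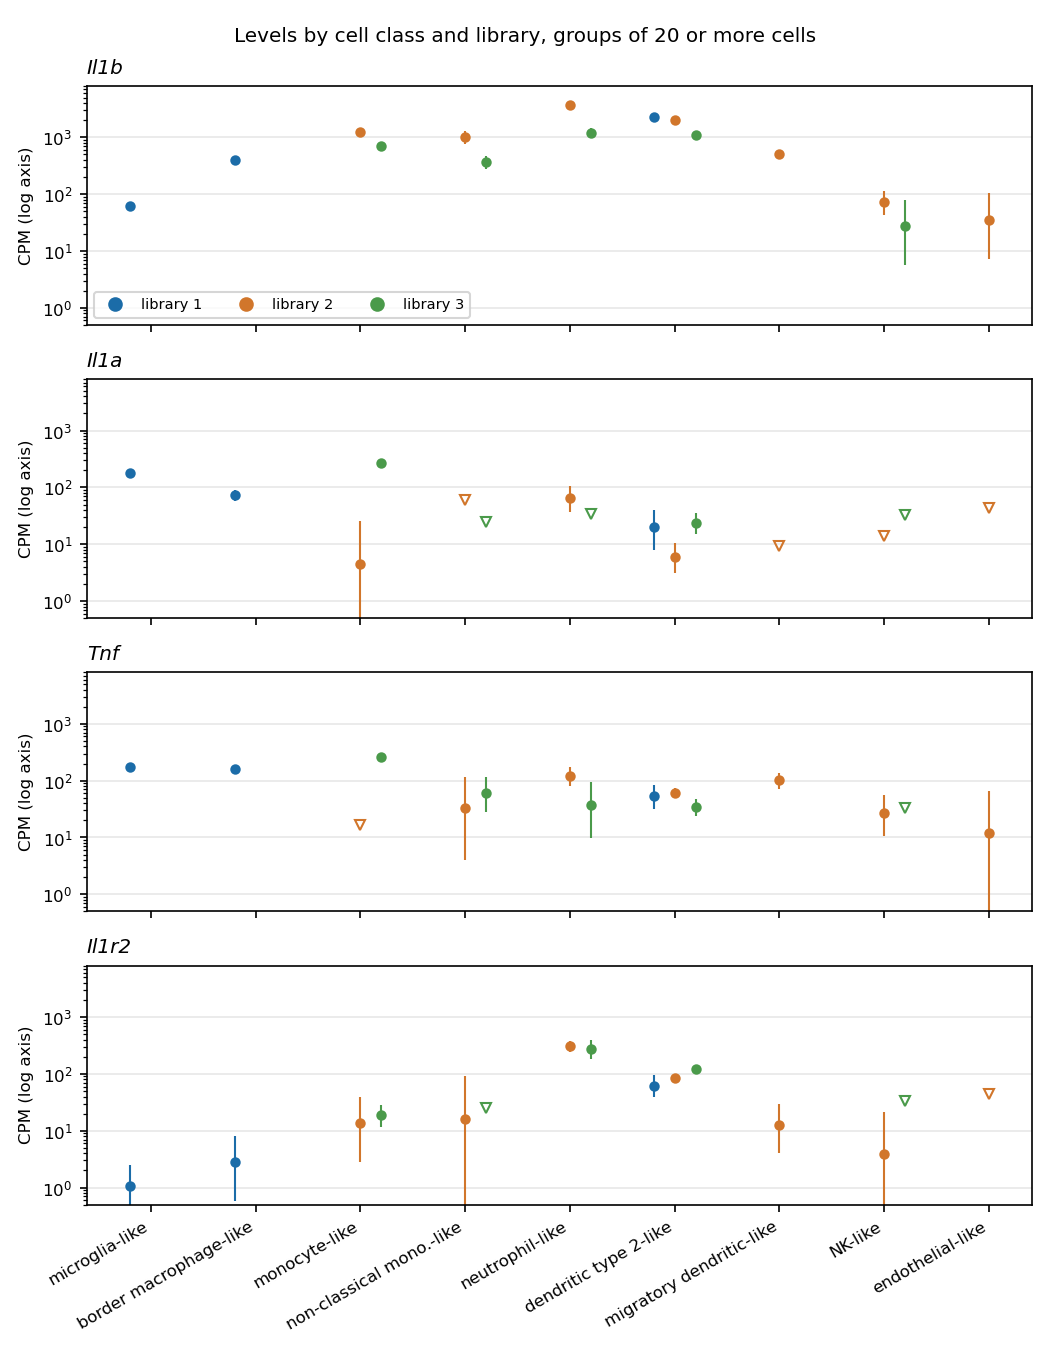
Levels of Il1b, Il1a, Tnf and Il1r2 (CPM, log axis) in each class and library with at least 20 cells; points are summed counts, bars are exact Poisson 95% intervals, and open triangles are upper limits where no UMI was counted. Among the named classes Il1b was highest in neutrophil-like cells of library 2 (3631 CPM), and Il1a and Tnf of monocyte-like cells were high in library 3 and near or at 0 in library 2. Of their 329 and 317 UMIs in library 3, 327 and 312 were in 39 cells that also carried microglial markers.

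Il1a, the ligand active without cleavage, had a different distribution. Of its 1484 UMIs, 57.7% were in microglia-like cells, 22.2% in monocyte-like cells and 10.7% in unnamed clusters. The levels were 221 CPM [198 to 246] in monocyte-like cells, 182 CPM [169.7 to 194] in microglia-like cells and 72.3 CPM [57.1 to 90.2] in border-associated-macrophage-like cells. Of the 330 monocyte-like UMIs, 327 came from 39 cells that also carried microglial markers, described below. The other 95 monocyte-like cells were at 4.18 CPM. Neutrophil-like cells held 39.5 CPM [23.03 to 63.3], which overlaps the border-associated-macrophage-like level, and dendritic-type-2-like cells 12.7 CPM [9.18 to 17.2]. Of the 17 neutrophil-like UMIs, 16 came from 22 cells that likewise carried microglial markers. No Il1a UMI was counted in 66 non-classical-monocyte-like, 56 migratory-dendritic-like and 32 endothelial-like cells, which allows levels of up to 12.99, 7.02 and 17.1 CPM by a floor of 3 counts. A non-coding transcript, Gm14023, overlaps Il1a on the opposite strand.

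Tnf was spread more evenly over macrophages. Microglia-like cells held 46.7% of its 1733 UMIs, at 172 CPM [160.2 to 184], and border-associated-macrophage-like cells were at 162 CPM [139 to 188], with overlapping intervals. Monocyte-like cells stood at 212 CPM [189.6 to 237], with 312 of their 317 UMIs in the same 39 cells. The other 95 monocyte-like cells were at 6.97 CPM. Neutrophil-like cells at 105 CPM and migratory-dendritic-like cells at 101 CPM did not differ beyond their intervals, and dendritic-type-2-like cells lay lower at 52.8 CPM [45.2 to 61.2]. Of the 45 neutrophil-like UMIs, 29 came from the 22 cells with microglial markers, and the other 68 neutrophil-like cells were at 52.1 CPM [29.8 to 84.6].

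The monocyte-like Il1a and Tnf came almost entirely from 39 cells of library 3 that also carried microglial transcripts. At a finer clustering (Leiden resolution 1.0), these 39 cells and 22 neutrophil-like cells of libraries 1 and 2 formed an unnamed cluster of 61 cells. It was led by the chemokines Ccl12, Cxcl10 and Ccl2 and by Lpl, Spp1 and Ch25h. Its leading genes also held the proliferation gene Birc5, with Cdc20, Cpd and Mif. The cluster passed 11 microglia, 5 neutrophil and 3 monocyte markers, with none of them leading. This split was chosen after the data had been seen, and the clustering did not use the 10 genes. The 39 monocyte-like cells held 327 Il1a UMIs (421 CPM) in 28 cells, and the other 95 monocyte-like cells held 3 (4.18 CPM). For Tnf the counts were 312 UMIs (402 CPM) in 25 cells and 5 UMIs (6.97 CPM). Il1b went the other way, at 572 CPM [520.2 to 628] in the 39 cells and 1081 CPM [1006 to 1160] in the others. Casp1 was also lower in the 39 cells, at 56.7 CPM [41.2 to 76.1] against 137 CPM [111 to 167].

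The 39 cells stood apart in their identity genes as well. Tmem119, a microglial surface protein, was at 532 CPM against 1.40 CPM in the other monocyte-like cells, and the 12 microglia markers summed to 6817 CPM with 0 of 12 at zero, against 414 CPM with 3 of 12 at zero. Ly6c2, which marks classical monocytes, was at 174 CPM against 1566 CPM. The median depth was 18611 UMIs against 6692. Within library 3, the 49 other monocyte-like cells held Il1a at 4.36 CPM and Tnf at 10.9 CPM, near the 4.53 CPM of Il1a and 0 UMIs of Tnf in the 39 monocyte-like cells of library 2. Whether the high depth and the mixed markers come from pairs of cells was not tested.

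The neutrophil-like cells of library 2 split in the same direction, and those of library 1 were too few to show it. Pooled, the 22 cells of the Ccl12 and Cxcl10 cluster held 16 of 17 Il1a UMIs (130.3 CPM against 3.25 CPM in the other 68) and 29 of 45 Tnf UMIs (236 CPM against 52.1 CPM). In library 2, 14 cells of the cluster held 15 Il1a UMIs (189.5 CPM) and Tnf at 291 CPM, and the other 40 held 1 Il1a UMI (5.92 CPM) and Tnf at 41.4 CPM. In library 1, 8 cells of the cluster held 1 Il1a UMI and the other 7 held 0, and Tnf was at 138 CPM from 6 UMIs and 173 CPM from 5, with overlapping intervals. Over all libraries, Il1b was at 3250 CPM [2939 to 3586] and 2964 CPM [2775 to 3163], with overlapping intervals. The neutrophil gene S100a8 was at 21368 CPM against 188481 CPM, and the microglia markers summed to 16774 CPM with 0 of 12 at zero against 374 CPM, also with 0 of 12 at zero. With both sets of cells set aside, Il1a in monocyte-like and neutrophil-like cells was between 3 and 5 CPM, and Il1b stayed above 1000 CPM in each.

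**Figure D2:**
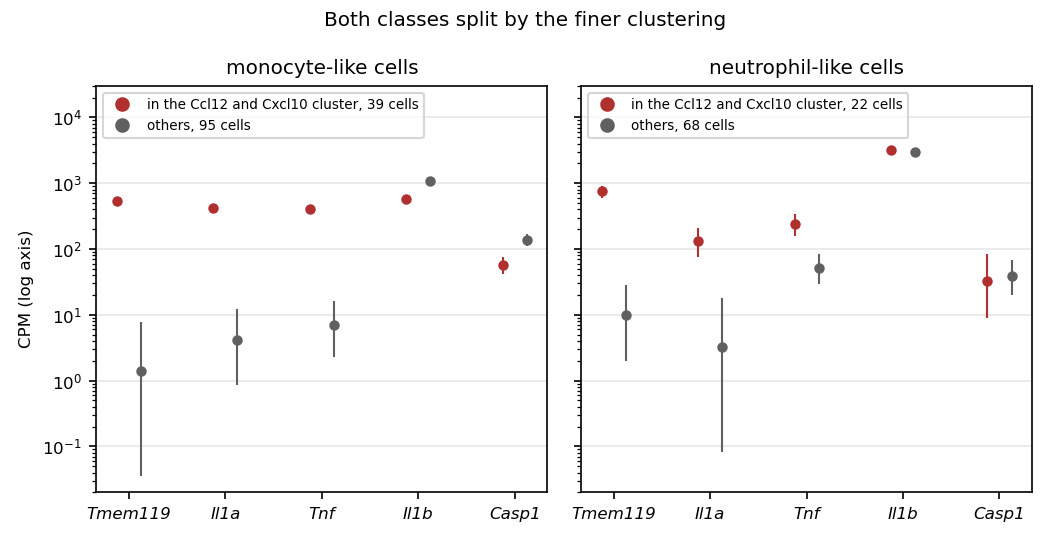
Levels of Tmem119, Il1a, Tnf, Il1b and Casp1 (CPM, log axis) in monocyte-like cells (39 against 95) and neutrophil-like cells (22 against 68), split by membership of the Ccl12 and Cxcl10 cluster; bars are exact Poisson 95% intervals. Libraries are pooled, and in this pool Tmem119, Il1a and Tnf were higher in the cells of that cluster in both classes, but Tnf was not in neutrophil-like cells of library 1; Il1b was not higher beyond its interval in either class.

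Il18, which needs caspase-1 as Il1b does, was shared by microglia-like, dendritic-type-2-like, monocyte-like and border-associated-macrophage-like cells and was low in the others with over 50 cells. It lies on chromosome 9, at chr9:50554827-50581840, where Bco2 and Tex12 overlap it on the other strand. Microglia-like cells held 53.7 CPM [47.3 to 60.7], dendritic-type-2-like cells 41.8 CPM, monocyte-like cells 41.5 CPM and border-associated-macrophage-like cells 40.8 CPM, each overlapping the next. Neutrophil-like cells, which led for Il1b, held 6.98 CPM [1.44 to 20.4] from 3 UMIs, migratory-dendritic-like cells 9.35 CPM [2.55 to 23.95] and NK-like cells 2.38 CPM [0.0603 to 13.3], each apart from the microglial interval. In dendritic-type-2-like cells the libraries held 62.1, 32.9 and 52.8 CPM.

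The antagonist and the decoy were highest in neutrophil-like cells among the named classes and were nearly undetected in microglia. Il1r2 (chr1:40074079-40125231, overlapped by the antisense transcript Gm16894) was at 305 CPM [255 to 362] in neutrophil-like cells, 93.4 CPM [83.2 to 104] in dendritic-type-2-like cells, 19.4 CPM [13.01 to 27.9] in monocyte-like cells and 1.06 CPM [0.345 to 2.48] in microglia-like cells, from 5 UMIs. Neutrophil-like cells of libraries 2 and 3 did not differ in it beyond counting error (306 CPM and 274 CPM). In dendritic-type-2-like cells the order of the libraries was opposite to that of Il1b, with 120 CPM [99.2 to 144] in library 3 above 62.1 CPM [38.9 to 93.99] in library 1. Il1rn (chr2:24336853-24351494) was rare, with 103 UMIs in all cells. It was at 55.8 CPM [35.8 to 83.03] in neutrophil-like cells, 16.8 CPM [10.8 to 24.7] in monocyte-like cells, 7.88 CPM [5.15 to 11.6] in dendritic-type-2-like cells and 1.27 CPM [0.467 to 2.77] in microglia-like cells, from 6 UMIs.

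The receptors of Tnf were broader. Tnfrsf1a, the receptor with a death domain (chr6:125349362-125362484), was at 195 CPM [183 to 209] in microglia-like cells, and then at 179 CPM in border-associated-macrophage-like, 169 CPM in non-classical-monocyte-like, 165 CPM in neutrophil-like and 155 CPM [136 to 177] in monocyte-like cells. Neighbours in this order overlapped, and its ends, microglia-like and monocyte-like cells, lay apart. The monocyte-like level joins 95.4 CPM [74.9 to 119.7] in the 39 cells with microglial markers and 220.3 CPM [187.3 to 257.5] in the other 95. The interval of these 95 overlaps that of microglia-like cells. Tnfrsf1a was lower in dendritic-type-2-like cells, at 77.9 CPM [68.7 to 88.1], and migratory-dendritic-like cells, at 18.7 CPM [8.08 to 36.9]. Tnfrsf1b (chr4:145213463-145246870) was at 121 CPM [80.6 to 175] in non-classical-monocyte-like cells, and at 75.03, 74.7 and 73.7 CPM in border-associated-macrophage-like, microglia-like and monocyte-like cells. The monocyte-like level of Tnfrsf1b joins 50.3 CPM [35.7 to 68.7] in the 39 cells and 99.01 CPM [77.3 to 124.9] in the other 95. In dendritic-type-2-like cells Tnfrsf1b was at 26.1 CPM [20.9 to 32.2]. No Tnfrsf1b UMI was counted in the 32 endothelial-like cells, which allows up to 17.1 CPM.

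The inflammasome genes differed in their leading classes. Nlrp3, the sensor (chr11:59541568-59566956), was at 61.1 CPM [47.3 to 77.8] in border-associated-macrophage-like cells, 46.7 CPM [40.7 to 53.3] in microglia-like cells and 37.9 CPM [31.6 to 45.2] in dendritic-type-2-like cells, each overlapping the next. It was not counted in 125 NK-like cells, which allows up to 7.15 CPM. Dendritic-type-2-like cells of library 1 held 76.2 CPM [50.2 to 111] and those of library 2 held 30.3 CPM [23.2 to 39.1]. Casp1, the protease (chr9:5298517-5307265), was at 99.6 CPM [63.1 to 149] in non-classical-monocyte-like cells, 95.1 CPM [80.1 to 112] in monocyte-like cells and 44.1 CPM [38.3 to 50.6] in microglia-like cells.

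Within the microglia-like cells of library 1, Il1a, Il1b and Tnf differed between the clusters by more than 2-fold, and Il18, the receptors and the inflammasome genes did not. Cluster 0 (614 cells) was led by P2ry13, P2ry12, Slc2a5 and Gpr34, genes of unstimulated microglia. Cluster 1 (436 cells) passed the rule for all 12 microglia markers, but its 10 leading genes held none of them and included the chemokines Ccl3 and Ccl4 with Adamts1, Sgk1 and Myc. Il1a was at 255 CPM [235 to 275] in cluster 1 and 96.4 CPM [83.8 to 110.4] in cluster 0, a ratio of 2.64. Tnf was at 286 CPM [265 to 308] and 37.4 CPM [29.7 to 46.4], a ratio of 7.66. Il1b was at 109 CPM [96.8 to 123] and 8.76 CPM [5.28 to 13.7], a ratio of 12.5. With a call set at a 2-fold difference, these 3 were higher among the 8 members with at least 50 UMIs, where 1.02% of 6986 genes were. None of the 8 was lower, where 0.258% of genes were.

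The other tested members stayed within 2-fold. Il18 had a ratio of 0.855, Tnfrsf1a of 0.957, Tnfrsf1b of 0.840, Casp1 of 0.957 and Nlrp3 of 1.33. Il1rn (6 and 0 UMIs) and Il1r2 (3 and 2 UMIs) fell below the minimum. The median log2 ratio was 0.18 over the 8 members and −0.09 over all genes tested.

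Other measures moved with this difference. The immediate early and stress genes, which enzymatic digestion is known to induce, summed to 15818 CPM in cluster 1 and 7878 CPM in cluster 0, and 8 of the 14 were at least 2-fold higher, among them Atf3 (908 against 104 CPM) and Egr1 (338 against 57.2 CPM). Median depth was 5004 against 2873 UMIs, mitochondrial counts were 1.19% against 1.05%, and the 12 microglia markers summed to 36011 against 44652 CPM, with none at zero in either. Their part in the cytokine difference was not tested. At Leiden resolution 1.0, a microglia-like cluster of 70 cells, 67 of them in library 1, was led by Gdf15, Tnf, Il1a, Ccl3 and Egr1. It is described because members were among its leading genes, so high levels of these follow from that choice. There Il1a reached 729 CPM, Tnf 836 CPM, Il1b 416 CPM and Nlrp3 88.4 CPM, and the stress genes summed to 24567 CPM. In the 356 library 1 cells of the P2ry12-led cluster at that resolution they were at 92.3, 16.5, 5.48 and 40.2 CPM, with the stress genes at 5566 CPM. The microglia-like clusters with 372 and 248 library 1 cells at that resolution are not described here, and they hold most of the remaining cells.

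**Figure D3:**
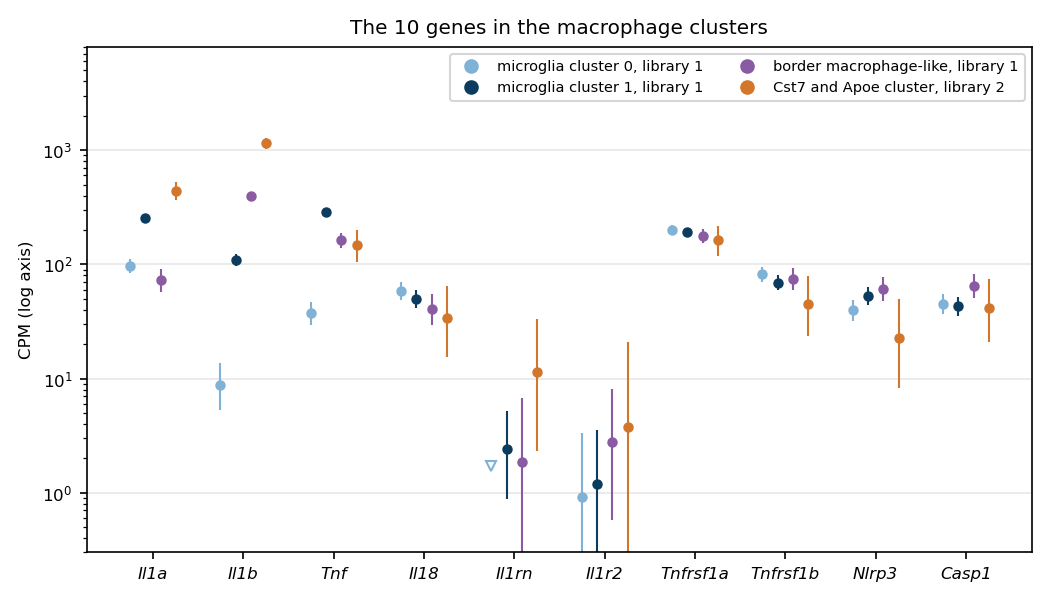
Levels of the 10 genes (CPM, log axis) in microglia-like clusters 0 and 1 and border-associated-macrophage-like cells of library 1 and in the unnamed Cst7 and Apoe cluster of library 2; bars are exact Poisson 95% intervals and open triangles upper limits. Il1a, Il1b and Tnf differed between clusters 0 and 1, and Tnfrsf1a, Tnfrsf1b, Il18 and Casp1 did not differ by 2-fold.

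Library 2 held few microglia-like cells, and its nearest counterpart was an unnamed cluster of 79 cells led by Cst7, Apoe and Cd63, genes known from reactive microglia. It passed the rule for 10 of 12 microglia markers, none of them leading, and 56 of its cells were in library 2. Against microglia-like cells of library 1, these 56 held Il1b at 1144 CPM [1019 to 1281] against 62.6 CPM [55.6 to 70.2], a ratio of 18.3. Il1a was at 442 CPM [365 to 529.5] against 181 CPM [169 to 194], a ratio of 2.44. By summed counts, Il1b and Il1a were the 2 of 8 tested members at least 2-fold higher, beside 2.84% of 7111 genes. The 117 Il1a UMIs came from 20 of the 56 cells. As means over cells, Il1a was at 285.9 against 161.8 CPM, less than 2-fold apart, and Il1b at 742.2 against 45.2 CPM. In cells thinned to equal depth, as described below, Il1a was detected in 28% [16.2 to 42.5] against 22.9% [20.3 to 25.7]. These intervals overlap. Nlrp3 was the 1 member at least 2-fold lower, at 22.7 CPM from 6 UMIs against 46.7 CPM, beside 20.8% of genes. Tnf was close, at 147 CPM [105 to 201] against 170.4 CPM [159 to 183]. The microglia markers of these cells summed to 20199 CPM against 40028 CPM, with 0 of 12 at zero. The 21 cells of the same cluster in library 1 held Il1b at 28.3 CPM from 2 UMIs and Il1a at 70.7 CPM from 5. Both lie below the values of library 2. The immediate early and stress genes also differed, at 2008 CPM in these 21 cells and 9947 CPM in the 56. In microglia-like cells of library 1 they summed to 12127 CPM. The abundance of Il1b in other cells of library 2 moved with the Il1b of the 56 cells, with 72.6 CPM in the NK-like cells of that library. The part of either was not tested.

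The 9 microglia-like cells of library 2 held 8 Il1b UMIs (166 CPM [71.8 to 328]) and 1 Il18 UMI (20.8 CPM). Against library 1, Il1b was at least 2-fold higher, beside 8.34% of 7006 genes, and Il18 at least 2-fold lower, beside 8.42%. Which members were called in this comparison changed with how the cells were named, so it is given as values of 9 cells only.

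Il1b and Tnf in microglia came from few cells. Of the 292 Il1b UMIs of the 1050 library 1 cells, 63 cells held all, and the 52 highest cells (5% of cells) held 96.2%. For Tnf, 221 cells held 795 UMIs, and the 52 highest held 64.03%. For Il1a, 387 cells held 845 UMIs, and the 52 highest held 45.9%. The median over 4404 genes with 100 to 1000 UMIs was 38.7%. The receptor Tnfrsf1a, with 910 UMIs, was at 21.98%. This share depends on the UMI number of a gene, to which the median was not matched. Evenness is therefore not read from the distance to the median. Il1a and Tnf, with 845 and 795 UMIs, had larger shares than Tnfrsf1a. Single cells reached 39 UMIs of Il1b, 32 of Tnf and 33 of Il1a, and no cell exceeded 6 of Tnfrsf1a. With 4 or more UMIs there were 21 cells for Il1b, 64 for Tnf and 51 for Il1a. When each cell was instead named by its own marker counts, the Il1b level of microglia-like cells of library 1 was 152 CPM in place of 62.6.

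**Figure D4:**
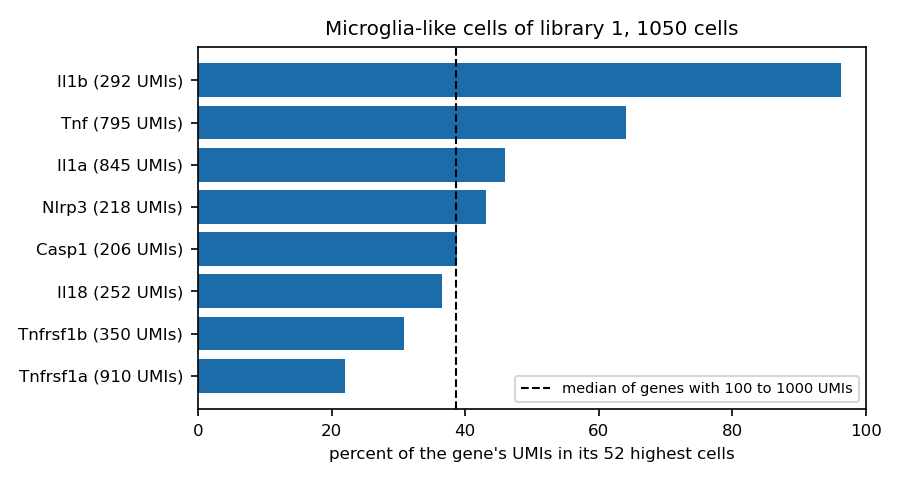
Percent of each gene's UMIs held by its 52 highest cells among 1050 microglia-like cells of library 1 (bars, from 0); the dashed line is the median of 4404 genes with 100 to 1000 UMIs, 38.7%. Il1b (96.2%) and Tnf (64.03%) stood above the line and Tnfrsf1a (21.98%) below it. The share depends on the UMI number of a gene, to which the line is not matched.

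Cell shares were compared after each cell had been thinned at random to 2000 UMIs, which left out 64 shallower cells of 1050. Of the 986 microglia-like cells of library 1, 22.9% held Il1a [20.3 to 25.7, exact Clopper-Pearson], 13.2% Tnf, 3.65% Il1b, 31.5% Tnfrsf1a, 16.02% Tnfrsf1b, 10.9% Il18, 8.72% Nlrp3 and 7.51% Casp1. Without thinning, the shares of Il1a, Tnf and Il1b were 36.9%, 21.1% and 6%. NK-like cells were taken to lack Il1a, Il1b and Nlrp3, at a median depth of 3409 UMIs in library 1 against 3366 in the microglia-like cells. In library 1, 0 of 11 thinned NK-like cells held any of the 3, which allows a share of up to 27.3%. That limit is above the microglial shares of Il1a, Il1b and Nlrp3, so the background of library 1 could not be measured closely enough to set against them. In library 2, which holds 9 microglia-like cells, 16.4% of 67 thinned NK-like cells held Il1b and 0 held Il1a or Nlrp3.

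In microglia-like cells of library 1, each of Il1a, Il1b and Tnf was detected more often in cells that also held another of the 3. At 2000 UMIs, 664 of 986 cells (67.3%) held none of the 3, 263 held 1, 48 held 2 and 11 held all 3. The median depth before thinning was 3321, 3925, 5292 and 6974 UMIs in these sets. Il1a was detected in 37.7% [29.4 to 46.6] of the 130 Tnf-positive cells and in 20.7% [18.01 to 23.6] of the Tnf-negative cells. It was detected in 55.6% [38.1 to 72.1] of the 36 Il1b-positive cells against 21.7% [19.1 to 24.4]. Il1b was detected in 9.23% [4.86 to 15.6] of Tnf-positive cells against 2.80% [1.80 to 4.14]. The intervals of these 3 pairs were apart, out of 28 pairs among the 8 members with 20 or more positive cells. How often intervals lie apart over all genes is not given, and the next shares use a 2-fold ratio instead.

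The same shares were taken for all 8695 genes detected in at least 1% of cells. Il1b (4.20-fold) and Tnf (2.03-fold) were detected at least 2-fold more often in Il1a-positive cells, beside 3.13% of genes. Il1b (3.29-fold) was so in Tnf-positive cells, beside 4.55% of genes. Il1a (2.56-fold), Tnf (2.68-fold) and Nlrp3 (2.71-fold) were so in Il1b-positive cells, beside 12.3% of genes. Nlrp3 was in 22.2% [10.1 to 39.2] of Il1b-positive cells and 8.21% [6.54 to 10.1] of the others, with intervals that just overlapped. In Tnf-positive cells Nlrp3 was at 7.69% against 8.88%, and this direction reversed in another random draw of the same cells (10.6% against 7.49%) and under 4 other settings, so no direction is read from it. Thinned to 1000 UMIs, the difference for Il1a by Tnf was gone (12.4% against 11.97%), and Nlrp3 was in 0 of 20 Il1b-positive cells, so these pairs rest on the deeper count.

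The pairs were also taken within each microglial cluster. In the 427 thinned cells of cluster 1, Il1a was in 45.6% [35.8 to 55.7] of Tnf-positive and 26.5% [21.8 to 31.7] of Tnf-negative cells, and in 67.9% [47.7 to 84.1] of Il1b-positive against 28.6% [24.2 to 33.3] of Il1b-negative cells. Nlrp3 was in 17.3% [11.3 to 24.8] of its Il1a-positive cells against 6.80% [4.20 to 10.3]. Il1b by Tnf had overlapping intervals there (11.7% against 4.94%). In the 559 thinned cells of cluster 0, Il1a was in 2 of 27 Tnf-positive cells (7.41% [0.91 to 24.3]) and in 17.1% of the others, and Il1b was in 0 of the 27. The intervals of cluster 0 overlap, and the difference between the clusters in co-detection was not tested.

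**Figure D5:**
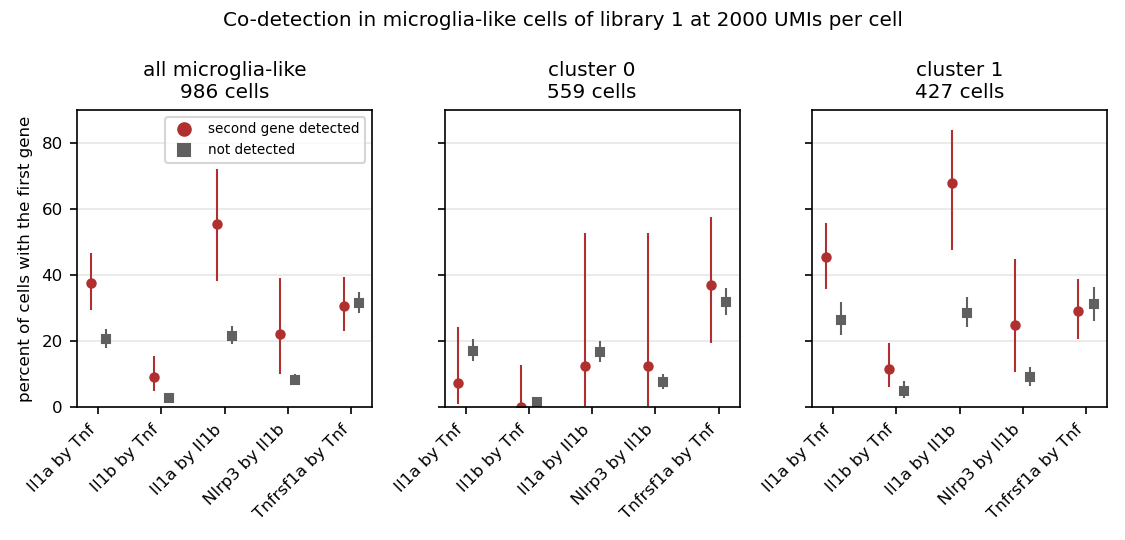
Percent of thinned microglia-like cells of library 1 with the first gene of a pair, among cells with (red circles) and without (grey squares) the second, for all 986 cells, the 559 of cluster 0 and the 427 of cluster 1; bars are exact Clopper-Pearson 95% intervals. The circles lie above the squares for Il1a, Il1b and Tnf in all cells and in cluster 1, and the intervals overlap in cluster 0.

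The genes detected most often with the cytokines across single microglia included early transcription factors and regulators of NF-kB, named here by rule. By the phi coefficient of detection over the same 986 cells, Tnf was nearest to Atf3 (0.287), Nr4a1, Nfkbia, Gadd45b and Ifrd1. Il1b was nearest to Nfkbiz (0.201), Pim1, Ifrd1, Plekho2 and Esyt2, and Il1a to Gadd45b (0.182), Dusp1, Nfkbiz, Cd83 and Il1b. Atf3, an early transcription factor, was in 63.9% of Tnf-positive cells and 25% of Tnf-negative cells. The coefficients are low and describe these cells only.

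Over the 15 groups of 1 class in 1 library with at least 20 cells, Il1b varied with Il1r2 (Pearson r = 0.785 of log2(CPM + 10)) and with Il1rn (r = 0.706), and Il1a with Tnf (r = 0.722). For Il1a and Il1b it was 0.134. These groups share libraries and depth, so the values are descriptions. They include monocyte-like cells of library 3 and neutrophil-like cells of library 2, where Il1a and Tnf came mostly from cells with microglial markers. The part of those cells in r was not tested. Among 9686 genes, the nearest were Gm13075, D5Ertd605e and Chst1 for Il1a (r = 0.980, 0.965 and 0.926) and Plbd1, Pirb and Clec12a for Il1b (0.916, 0.898 and 0.889). For Tnf they were Rnf41, Znrd1as and Arl8b (0.850, 0.792 and 0.790), for Il1rn Clec4d, Slfn4 and Irg1 (0.952, 0.941 and 0.921) and for Il1r2 Ppm1m, Trem1 and A530032D15Rik (0.912, 0.826 and 0.822). For Il18 they were Tmem109, Med7 and Pepd (0.899, 0.883 and 0.859), for Tnfrsf1a Wdr41, Itgam and Ppt2 (0.863, 0.854 and 0.843) and for Tnfrsf1b Rap2c, Fyb and Irf2 (0.884, 0.876 and 0.873). For Nlrp3 they were Slc15a3, Fam217b and Plcb2 (0.901, 0.898 and 0.896), and for Casp1 Mapkapk2, Fam111a and Api5 (0.931, 0.916 and 0.911).

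The other 45 genes of the pathways were counted as 6 lists. Between microglia clusters 1 and 0, 25 of the 45 had at least 50 UMIs, 4 were at least 2-fold higher and 0 lower, beside the same 1.02% and 0.258% of genes, and their median log2 ratio was 0.20. Each of the 4 is known as a brake on such signalling, namely Nfkbia, the inhibitor of NF-kB (2443 against 507 CPM), Tnfaip3, a ubiquitin-editing enzyme (68.1 against 16.6 CPM), and Zfp36 and Zc3h12a, which destabilise cytokine mRNA (1296 against 563 CPM and 42.9 against 12.5 CPM). None of the 5 tested genes each of IL-1 receptor signalling and of the inflammasome passed 2-fold. Between the Cst7 and Apoe cluster of library 2 and microglia-like cells of library 1, 27 of the 45 were tested, of which 2 were higher and 6 lower, beside the 2.84% and 20.8% of genes given above.

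For the other genes of the pathways, the named class with the highest level is given, without a claim that it lies beyond the intervals of the next class. Of the ligands, Il33 was at 85.6 CPM in endothelial-like cells, Il1f9 at 90.7 CPM in neutrophil-like cells, and Il18bp, which binds Il18, at 28.1 CPM in migratory-dendritic-like cells. Of the receptors, Il18rap was at 69.1 CPM and Sigirr at 42.9 CPM in NK-like cells, and Il1rl1 and Il1rl2 at 16.7 and 10.6 CPM in dendritic-type-2-like cells. Irak2, a kinase below the IL-1 receptor, was at 67.9 CPM in microglia-like cells, and Myd88 and Irak3 in non-classical-monocyte-like cells at 64.95 and 34.6 CPM. Of the inflammasome list, Pycard, the adaptor, was at 512 CPM in monocyte-like cells and Gsdmd, the pore former, at 147 CPM in non-classical-monocyte-like cells. In migratory-dendritic-like cells the genes of this kind were Traf1 (781 CPM, against 1.91 CPM in microglia-like cells), Relb (613 CPM), Rel (442 CPM) and Nfkbia (1859 CPM). Ltb was at 383 CPM in NK-like cells, and Zfp36 was at 981 CPM and Tnfaip3 at 61.2 CPM in dendritic-type-2-like cells. For Tnfaip3 the interval [53.1 to 70.3] overlapped that of neutrophil-like cells at 58.1 CPM [37.6 to 85.8], and the unnamed cluster of 7 cells stood higher, at 658 CPM.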

How the data were processed

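Cell Ranger 2.0.1 and the mm10 build are named in the submitters' processing notes. The authors deposited UMI counts per gene and cell in 1 matrix, without normalization. Cells with at least 500 genes and at most 10% mitochondrial counts were kept, which removed 5 of 2149. Scrublet in scanpy 1.11.5 called 7 doublets (0.327%), which were removed. So low a yield means that doublets may remain, and an earlier removal by the authors is not given in the sources used here.

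Counts scaled to 10000 per cell were log-transformed, and 2000 variable genes, 30 components, 15 neighbours and Leiden resolution 0.5 (igraph 0.11.9) gave the clusters. A marker counted at a UMI in a fraction of at least 0.3 of cells and a CPM of at least 2 times the median cluster. A class needed 3 such markers, and the markers among 10 leading genes decided. A cluster with fewer than 2 leading markers of its class and 3 markers of another class stayed unnamed. This scoring was settled after the clusters had been seen, and rebuilt names may differ from those of the study. Markers Ighm and Trbc2 and the proliferation gene Pclaf had no row under these symbols.

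The members and lists were chosen with earlier results of these data known. Named genes were all members, the 2 genes of each list with the highest CPM and the 2 with the widest range over classes, the 3 nearest genes by Pearson r, and the 5 nearest by phi. Calls need at least 50 UMIs over both groups and a 2-fold CPM ratio, and a group at 0 was set to 3 counts. Gene positions are from GENCODE M21 (GRCm38), and start-site sequences from RefSeq (GRCm38.p6). Scripts were tested on simulated data. Alternatives covered resolution, gene and mitochondrial filters, doublets, naming cell by cell, thinning, the detection minimum and per-cell means.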

Additional observations from a re-analysis of the deposited data

Results flagged for a closer look

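Il1b was counted in an unnamed cluster of 7 cells (1 in library 1, 4 in library 2 and 2 in library 3) that no comparison above used. Its level was 658 CPM [390.1 to 1040, exact Poisson 95% interval], from 18 UMIs in 3 of the 7 cells. That lies above 109.7 CPM, the level that 3 counts would give at this depth. The cluster was led by Prss34, Mcpt8, Fcer1a, Il6 and Hdc, genes known from basophils and mast cells, and it passed too few markers of any class to be named.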

How the results depend on the processing

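Of 237 alternative values for 29 results, 164 stayed within a set limit, 66 moved beyond it and 7 changed direction, and the cause was not tested. The limit was the counting interval of the main value, or a set factor for the results that count called members. At Leiden resolution 1.0 the monocyte-like Il1a and Tnf of library 3 (266 and 257 CPM) were 4.65 and 9.29 CPM, without the Ccl12 and Cxcl10 cluster 4.36 and 10.9 CPM, with at least 1000 genes per cell 5.44 and 10.9 CPM, with each cell named by its own markers 39.7 and 40.95 CPM, and as means over cells 194 and 183 CPM. At most 5% mitochondrial counts gave Tnf 308 CPM there. The Il1b of neutrophil-like cells of library 2 (3631 CPM) was 3947 CPM at resolution 1.0 and without that cluster, 3888 CPM with the members kept in clustering and 6110 CPM as a mean over cells. That of dendritic-type-2-like cells (1979 CPM) was 2294 CPM with at most 5% mitochondrial counts, 2168 CPM named cell by cell and 2223 CPM as a mean over cells.

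In microglia-like cells of library 1, naming cell by cell gave Il1a 159 and Il1b 152 CPM, and means over cells gave Il1a 162, Il1b 45.2 and Tnf 141 CPM. The shares with Il1a, Il1b and Tnf were 12.0%, 1.91% and 8.48% at 1000 UMIs, 36.9%, 6.0% and 21.1% without thinning, and 5.98%, 1.52% and 5.38% with at least 2 UMIs. Naming cell by cell gave an Il1b share of 5.79%.

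Il1a among Tnf-positive cells was 12.4% at 1000 UMIs (11.97% of Tnf-negative cells), 57.5% without thinning (31.4%) and 16.98% with at least 2 UMIs (5.36%). Il1b among Il1a-positive cells was 4.76% at 1000 UMIs and 15.3% with at least 2 UMIs, and Tnf among Il1b-positive cells was 15% at 1000 UMIs (8.35%). Nlrp3 among Il1b-positive cells reversed to 0% at 1000 UMIs (3.98%) and with at least 2 UMIs (1.13%). Nlrp3 among Tnf-positive cells reversed to 9.16% with called doublets kept, 4.49% at 1000 UMIs, 25.8% without thinning, 10.6% in another random draw and 1.89% with at least 2 UMIs. Between microglia-like cells of libraries 1 and 2, the 2 members at least 2-fold apart became 1 with the members kept in clustering and 0 at 3-fold. The 3 called between the microglia clusters became 4 at resolution 1.0 and with doublets kept, and 2 at 3-fold. No paired analysis was possible because each group is 1 library and the barcode numbers carry no group.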
